A study of Mus musculus with 15 samples.

Results

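In newborn mouse kidneys that had lost Dnmt1 in the Six2 lineage, the median measured window of 1 kb was 14.7 points less methylated than in controls, and 236 autosomal windows went the other way. In each of these windows every knockout (KO) library was more methylated than every control library and the KO mean was at least 5 percentage points above the control mean. They were chosen on the measured methylation itself, from 50993 windows with at least 3 positions of at least 10 calls in all 6 newborn libraries, and they made up 0.463% of them. The mirror of the rule kept 26026 windows with lower methylation in KO (51% of the 50993), 773 windows had every KO library above every control without the 5-point condition, and the members' differences below are therefore a description that was not tested.

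Methylation was read by reduced representation bisulfite sequencing (RRBS), which samples cytosines in CpG-rich restriction fragments. Controls (3 libraries) carried floxed Dnmt1 alleles (Dnmt1 f/f) without Cre and were taken on the day of birth, P0. KO samples (3 libraries, also P0) carried the same floxed alleles and Six2Cre, a recombinase driven by Six2, so that deletion is directed to nephron progenitors and their descendants while ureteric, stromal, endothelial and blood cells of the organ keep the gene. A further 3 RRBS libraries came from wild type adults of 6 weeks, and messenger RNA was sequenced from 3 controls and 3 KO samples at P0. All mice were C57BL/6. The labels call the source Six2-positive cells, but the protocol for DNA names whole kidneys. Whether a sample pools several animals is not given in the sources used here, so the spread between libraries may be technical.

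DNMT1 is the maintenance methyltransferase: after replication it copies the methyl mark of the parental strand onto the new strand at CpG sites, guided by UHRF1. DNMT3A and DNMT3B can methylate unmarked CpGs, and the TET enzymes oxidise the mark. CpG-dense promoters are usually kept free of methylation, whereas gene bodies and intergenic DNA are usually methylated, and intermediate levels can arise where cells of a tissue differ.

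Among the targeted gene and its relatives, Dnmt1 messenger RNA stood at 180, 156 and 188 CPM (counts scaled to a common library size) in the controls and 110, 111 and 93.7 CPM in the KO samples. It was lower in KO (log2 fold change -0.74, SE 0.12, edgeR adjusted p 0.00577), and the groups did not overlap. Dnmt3a (191 CPM in controls, 199 in KO) and Dnmt3b (22.5 and 19.1) did not pass (edgeR adjusted p 0.840 and 0.320), nor did Tet1 (26.7 and 36.5, edgeR adjusted p 0.0543) or Uhrf1 (132 and 164, edgeR adjusted p 0.0806). Total RRBS calls ran from 18424875 in KO 3 to 88765177 in control 2, and KO 3 had a median of 4 calls per position against 6 to 16 in the other newborn libraries. RNA gene counts ran from 26773937 to 34102567. Markers of other kidney cells were present in the RNA: the summed level of 25 tubule genes was 4234 to 9164 CPM in controls and 912 to 1095 CPM in KO. Fewer cells of a type and less RNA per cell cannot be told apart in such samples.

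Sequences are shown for 4 promoters and 2 microRNA hairpins because the deposited CpG positions can be placed on them letter by letter. They are from RefSeq for build GRCm38.p6, on which 99.6% of 27755 measured promoter positions fell on a CpG. Of the 236 windows, those with measured positions inside a promoter sequence (250 bases before to 50 after an annotated start) touched 7 genes, and 4 of these are printed 5′ to 3′, with capitals at the CpGs that were measured.
Tekt1 promoter, chr11:72361833-72362132, minus strand: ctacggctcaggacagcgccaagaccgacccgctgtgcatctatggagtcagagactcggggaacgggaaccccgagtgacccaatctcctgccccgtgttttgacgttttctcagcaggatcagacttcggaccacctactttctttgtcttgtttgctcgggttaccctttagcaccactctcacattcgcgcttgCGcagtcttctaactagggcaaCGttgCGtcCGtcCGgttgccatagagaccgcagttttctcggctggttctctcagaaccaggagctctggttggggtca
Gm1600 promoter, chr16:10331236-10331535, minus strand: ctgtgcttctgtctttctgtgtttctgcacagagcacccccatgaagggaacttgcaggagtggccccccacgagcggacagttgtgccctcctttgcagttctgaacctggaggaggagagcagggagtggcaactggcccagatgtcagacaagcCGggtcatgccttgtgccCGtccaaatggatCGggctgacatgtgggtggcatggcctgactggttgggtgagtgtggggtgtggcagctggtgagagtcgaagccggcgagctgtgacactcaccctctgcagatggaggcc
Smarca5 promoter, chr8:80739410-80739709, minus strand: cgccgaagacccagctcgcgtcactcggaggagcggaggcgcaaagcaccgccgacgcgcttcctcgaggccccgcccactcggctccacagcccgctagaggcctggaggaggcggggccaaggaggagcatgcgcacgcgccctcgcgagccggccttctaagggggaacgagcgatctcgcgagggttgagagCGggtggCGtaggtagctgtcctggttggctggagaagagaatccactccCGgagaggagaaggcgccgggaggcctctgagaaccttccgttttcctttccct
Kcnj10 promoter, chr1:172340960-172341259, plus strand: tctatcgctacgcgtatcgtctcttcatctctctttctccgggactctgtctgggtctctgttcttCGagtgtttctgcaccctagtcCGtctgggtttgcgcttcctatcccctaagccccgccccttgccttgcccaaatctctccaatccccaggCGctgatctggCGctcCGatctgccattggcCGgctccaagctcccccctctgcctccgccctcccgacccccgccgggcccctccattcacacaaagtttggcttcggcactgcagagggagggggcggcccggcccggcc

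The window at Cercam, chromosome 2 from 29845001 to 29846000, holds a pair of microRNA hairpins on opposite strands that cover the same DNA. Their hairpins are given with capitals at the measured CpGs, and the mature strand miR-219a-5p with its seed, bases 2 to 8, in capitals.
Mir219a-2 hairpin, chr2:29845631-29845727, minus strand: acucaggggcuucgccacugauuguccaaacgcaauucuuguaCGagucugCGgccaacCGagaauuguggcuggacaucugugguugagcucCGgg
Mir219b hairpin, chr2:29845647-29845711, plus strand: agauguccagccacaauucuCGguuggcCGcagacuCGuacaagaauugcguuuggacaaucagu
mmu-miR-219a-5p: uGAUUGUCcaaacgcaauucu

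The members had low to intermediate methylation in controls. The median control mean over the 236 windows was 22.5% (range 0.292% to 65.8%) and the median KO mean was 36.7%, while over all 50993 windows the medians were 68% in controls and 47.9% in KO. The median difference of the members was 11.5 points, with quartiles of 7.94 and 16.7 and a maximum of 37.1. Of the 236, 146 differed by at least 10 points, 32 by at least 20 and 5 by at least 30. The median SD over 3 libraries was 3.49 points in controls and 5.3 points in KO.

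**Figure D1:**
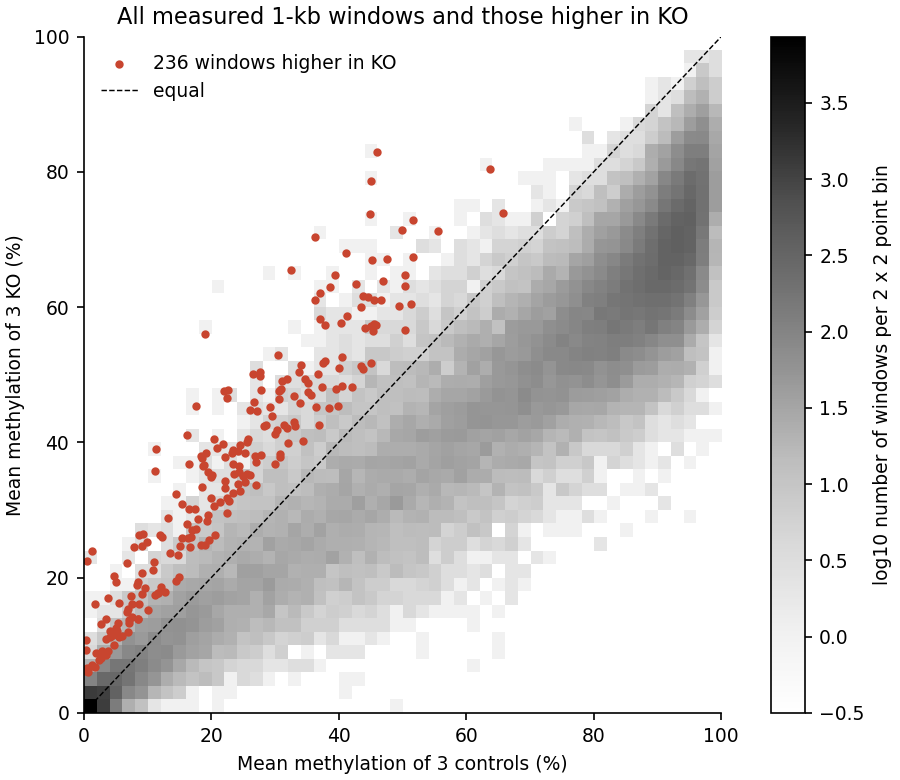
Mean methylation of the 3 KO libraries (vertical, %) against that of the 3 controls (horizontal, %), with all 50993 windows as grey density (log10 number per bin of 2 by 2 points), the 236 members as red points and equality as a dashed line. Most windows lie below the line, with a median difference of -14.7 points, and the members lie mainly between 0% and 60% in controls.

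The share of windows that met the rule depended on the level in controls, which the rule itself uses. It was 0.219% of 13272 windows under 5% in controls, 1.87% of 1549 from 5% to 10%, 2.57% of 1789 from 10% to 20% and 3.55% of 1464 from 20% to 30%. It then fell to 2.78% of 1513 windows from 30% to 40%, 1.69% of 1718 from 40% to 50% and 0.346% of 2026 from 50% to 60%. Only 2 of 27662 windows at 60% or more were members. The median difference of members grew from 6.91 points in the lowest class to 15.5 points from 40% to 50%, while the median of all windows in those classes was -0.00289 and -11.4 points.

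The members were not an even sample of the libraries. KO 3, the library of lowest depth, was the highest KO in 141 of the 236 windows, against 48 for KO 1 and 47 for KO 2, and control 3 was the lowest control in 104. Controls 1, 2 and 3 had medians over the members of 21.6%, 23% and 20.7%, and the KO libraries, in the same order, had 34.2%, 33.3% and 39.9%. Without KO 3, 203 of the 236 were still at least 5 points above the controls and the median difference was 9.1 points. Without KO 1 or without KO 2, 225 were, with medians of 12 and 12.8 points. The median number of calls behind a member window was 74 in KO 3, 196 and 187 in KO 1 and KO 2, and 157, 376 and 178 in controls 1 to 3, with single values from 30 to 2365.

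Windows near the threshold overlap in size with the spread between libraries. The 3 members just inside differed by 5.03, 5.04 and 5.09 points, and the 3 windows just outside by 4.73, 4.77 and 4.98 points. In the window at 5.03 points (chromosome 2 from 73560001, at the start of Gm30940), KO 1 to 3 stood at 3.13%, 2.82% and 14.3% and controls at 1.37%, 1.28% and 2.50%, so KO 3 supplied most of the difference.

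Counting error alone separated few of the windows. A 95% Wilson interval was taken for the lowest KO library and for the highest control library of each window, and in 13 of the 236 these intervals did not overlap. The intervals cover counting error only, not the spread between libraries. They also use the same calls that chose the windows, so separation is favoured by the choice and is not separate support. They take each call as independent, although calls at CpGs close together can come from the same read, so they can be too narrow. The RRBS reads also carry no molecular identifiers here. These 13 windows are described first, by the nearest protein-coding gene, followed by the members with the largest differences over at least 5 positions. In each described member the groups are apart by the rule, and a majority of positions higher in KO is favoured by the choice.

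The largest difference was at chromosome 14 from 32934001 to 32935000, inside Vstm4. Controls 1 to 3 stood at 21.0%, 21.3% and 14.5%, KO 1 to 3 at 64.9%, 38.8% and 64.6%, and adults at 12.2%, 21.6% and 19.3%. Each KO library lay above the adults, as it did above the controls by the rule, and KO 2 was the lowest KO library. The difference was 37.1 points over 3 positions.

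A pair of windows lay in the same intergenic stretch of chromosome 4, 16837 and 52837 bases from Gjb5, a connexin gene whose protein forms gap junctions. In the first, from 127375001, controls stood at 50%, 51.2% and 36.7% and KO at 77.7%, 85.4% and 85.7%. In the second, from 127411001, controls stood at 21.9%, 22.3% and 22.4% and KO at 32.0%, 34.0% and 47.5%. The differences were 37.0 and 15.6 points, and the adult means of 24.9% and 15% were below both newborn groups.

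On chromosome 8 from 92134001 to 92135000, 222796 bases from Irx5, an Iroquois homeobox gene, controls stood at 21.2%, 18.3% and 13.3%. KO libraries stood at 42.1%, 37.8% and 56.0%, and adults at 65.6%, 45.4% and 39.0%. All 5 positions were higher in KO, by 14.4 to 39.1 points, within 48 bases. The adults were above the controls and overlapped the KO libraries.

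Gfra1 encodes the co-receptor through which GDNF signals to Ret in the ureteric bud. It held a pair of member windows on chromosome 19. In the window from 58388001, controls stood at 45.3%, 34.4% and 43.5%, KO at 63.3%, 60.5% and 80.4% and adults at 56.7%, 51.9% and 54.4%, with all 7 positions higher in KO. In the window from 58377001, controls stood at 25.4%, 20.9% and 19.8% and KO at 25.4%, 27.9% and 89.7%. KO 1 and KO 2 were there close to the controls, and KO 3 carried most of the difference of 25.6 points. Gfra1 RNA was 183, 228 and 77.3 CPM in controls and 205, 221 and 206 CPM in KO (log2 fold change 0.37, SE 0.33, edgeR adjusted p 0.534).

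Inside Havcr2, which encodes the immune receptor TIM-3, the window on chromosome 11 from 46480001 stood at 35.8%, 45.6% and 27.3% in controls and 61.5%, 60% and 61.8% in KO. The KO libraries had an SD of 0.960 points, and the adult mean was 33.2%, inside the range of the controls. Inside Mast1, a microtubule-associated kinase gene, the window on chromosome 8 from 84912001 stood at 9.22%, 12.4% and 11.9% in controls and 34.1%, 27.6% and 45.8% in KO. The adult values of 28.3%, 51.7% and 40% overlapped those of KO.

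Tnfaip2, a gene named for its induction by TNF, held a window on chromosome 12 from 111443001, 340 bases from the gene's annotated start. Controls stood at 6.36%, 8.21% and 5.88% and KO at 19.4%, 18.9% and 28.1%, and adults, at 19.6% to 23.8%, lay with the KO libraries. Its RNA was 62.6, 41.7 and 67.5 CPM in controls and 30.6, 30.4 and 28.7 CPM in KO, and it was lower in KO (log2 fold change -0.94, SE 0.18, edgeR adjusted p 0.0109). It was the only called gene among 11 tested genes within 5 kb of these 13 windows. Over all 18132 tested genes 6.36% were higher in KO and 8.23% lower, so 1 of 11 shows nothing particular to these windows.

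Tbc1d1, a Rab GTPase-activating protein of glucose transporter traffic, held 3 member windows on chromosome 5. The window from 64298001 stood at 21.2%, 20.3% and 18.8% in controls and 32.8%, 39.2% and 33.3% in KO, with adults lower at 10.6%, 12.7% and 16.7%. The others, from 64175001 and 64201001, had differences of 16.7 and 13.9 points from control means of 63.7% and 33.0%.

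The windows with most positions among the 13 had smaller differences. Inside Srbd1, on chromosome 17 from 85985001, all 11 positions were higher in KO. Controls stood at 47.1%, 48.5% and 44.2%, KO at 62.1%, 56.6% and 64.4% and adults at 59.0%, 57.8% and 63.6%. Inside Zfp423, a zinc-finger transcription factor gene, on chromosome 8 from 87661001, 14 of 15 positions were higher. Controls stood at 5.85%, 11% and 10.6%, KO at 18.8%, 15.6% and 27.7%, and adults overlapped the controls at 9.26% to 14.1%. Near Tle4, a Groucho-family corepressor gene 21072 bases away on chromosome 19 from 14426001, controls stood at 4.91%, 7.48% and 3.97% and KO at 15.4%, 13.9% and 19.4%, and all 7 positions were higher.

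The Cercam window, whose hairpin sequences are printed above, had all 15 measured positions higher in KO. Controls 1 to 3 stood at 16.4%, 17.0% and 15.1%, KO 1 to 3 at 29.3%, 29.3% and 25.2%, and adults at 64.2%, 59.6% and 66.1%. The newborn groups, separate by the rule, were each tight, and both were far below the adults. Of the CpGs in capitals, the 4 in the Mir219a-2 hairpin, in order of coordinate, had control means of 11%, 15.2%, 23.9% and 8.07% and KO means of 25.5%, 41.0%, 44.2% and 28.2%. Single libraries crossed at the first of these, where control 1 stood at 19.6% and KO 3 at 10%, and at the third, where control 2 stood at 36.6% and KO 2 at 31.7%. The other positions of the window differed by 1.67 to 32.1 points. Neither microRNA is measured by messenger RNA sequencing. Cercam itself was at 16.8, 17.2 and 16.9 CPM in controls and 14.8, 12.8 and 14.2 CPM in KO (log2 fold change -0.28, SE 0.14, edgeR adjusted p 0.245).

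**Figure D2:**
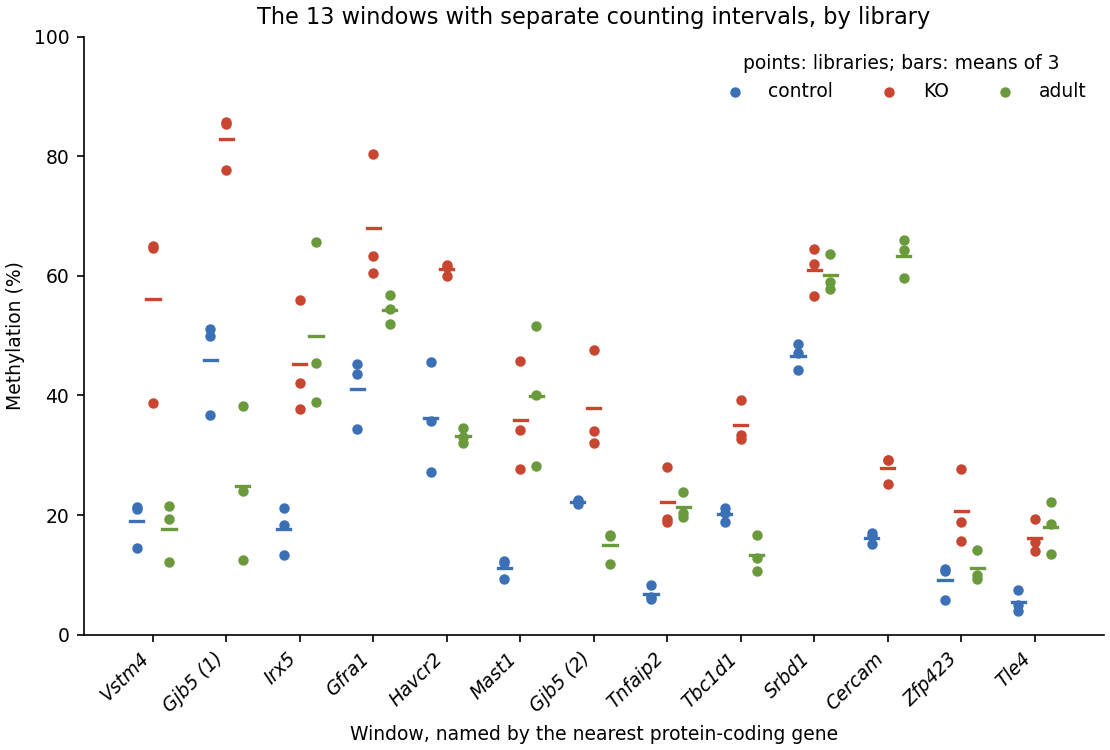
Methylation (vertical, %) in each library at the 13 windows whose counting intervals did not overlap, named by the nearest protein-coding gene, for controls (blue), KO (red) and adults (green), with bars at the means of 3. KO points lie above control points in each window by choice. Adult means lie below control means at both Gjb5 windows and at Tbc1d1, Vstm4 and Havcr2. At the other windows they lie above, and adults lie far above both groups at Cercam.

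By size, the 15 members with the largest differences among those with at least 5 positions ran from 27.7 points near Irx5 to 15.9 points at Kcp, a gene for a secreted modulator of BMP signalling. After the Irx5 and Gfra1 windows came Spsb4 on chromosome 9 from 96988001, with controls at 48.4%, 58.8% and 42.6% and KO at 66.1%, 58.9% and 89.3%. KO 2 there exceeded control 2 by less than a point, and the difference of 21.5 points was 12.6 points without KO 3. At Spint2, a Kunitz-type protease inhibitor gene, the window on chromosome 7 from 29282001 lies 24 bases from the annotated start. Controls stood at 22%, 10.6% and 16.9% and KO at 55.6%, 26.1% and 28.6%, and the difference was 20.2 points. It was 10.8 points without KO 1, 9.05 with positions weighing the same, 9.16 with all positions and 9.9 at a minimum of 5 calls, and no single one of its 5 positions differed by more than 14.9 points.

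Near Hsd11b2, the enzyme that inactivates corticosterone in the collecting duct, a window 8746 bases away on chromosome 8 from 105509001 stood at 32.7%, 29.2% and 18.1% in controls. KO libraries stood at 57.7%, 33.6% and 46.7%, and adults at 47.9%, 57.5% and 50.4%, above the controls in every library. Near Cdh6, a cadherin of the early nephron, a window 16594 bases away on chromosome 15 from 13193001 stood at 18.5%, 29.0% and 11.1% in controls and 40.9%, 32.3% and 33.6% in KO, with a second member further out at 13.4 points. Near Piwil1, whose protein binds piRNAs, the window on chromosome 5 from 128697001 had all 15 positions higher, with controls at 40.1%, 30.6% and 25% and KO at 43.6%, 46.6% and 57.9%. Its adult mean was 22.7%, below both.

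The others of the 15 were at Rufy3 (17.9 points), Enc1 (17.9), Phlda3 (17.8), Plekhg3 (17.4), Tekt1 (17.3), Gsc (17.0), Slc44a3 (16.6), Cdh6 (16.1) and Kcp (15.9). In Plekhg3 the controls had an SD of 1.2 points, at 42.6%, 40.2% and 41.2%, while KO stood at 61.7%, 44.0% and 70.3%. Near Gsc, a homeobox gene, control 2 at 52.3% and KO 2 at 52.6% were almost equal, and without KO 3, the highest at 79.5%, the difference was 8.06 points. At Rufy3 it was 9.03 points without KO 3 and at Enc1 11.4 points without KO 1, and at Kcp it was 9.26 points at a minimum of 5 calls and 8.65 points with all positions. In these windows the order of the groups held by the rule, but the distance between them often rested on 1 or 2 KO libraries.

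Promoters were a small part of the set. Of the members outside chromosome 18, for which no starts were used, 30 (13.1%) lay within 1000 bases of a RefSeq start, against 23.6% of the measured windows. Another 107 (46.7%) lay inside a protein-coding gene farther from a start, against 43.5% of windows, and 92 (40.2%) outside such genes, against 32.9%. Among windows under 10% in controls, 0.197% of those near a start were members, 0.502% of those farther inside genes and 1.12% of those outside genes. Among windows at 10% or more, which held 173 of these members, the shares were 0.481%, 0.499% and 0.495%. Exon structure was not used here.

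At the Tekt1 promoter, whose gene encodes a tektin of ciliary microtubules, all 5 capital CpGs lie 16 to 51 bases before the start. Over the window controls stood at 9.25%, 18.4% and 0%, KO at 22%, 33.5% and 24.0% and adults at 2.68%, 12.2% and 1.37%. The 5 CpGs had control means of 4.50% to 12.3% and KO means of 22% to 30.2%. Control 3 was at 0% at each of them and KO 3 had 10 calls at each. At the CpG nearest the start KO 3 was also at 0%, below controls 1 and 2. Tekt1 RNA was 2.68, 2.20 and 3.04 CPM in controls and 4.33, 3.84 and 4.48 CPM in KO (log2 fold change 0.67, SE 0.24, edgeR adjusted p 0.105).

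At Gm1600 the 3 capital CpGs lie 62 to 93 bases before the start, and the window stood at 13.3%, 22.8% and 19.2% in controls, 39.1%, 41.7% and 33.3% in KO and 38.3%, 33.3% and 41.1% in adults. KO and adults overlapped, and both were above the controls. At Smarca5, the ISWI chromatin remodeller SNF2H, the 3 CpGs lie at 3, 46 and 53 bases before the start. Controls stood at 0%, 0.88% and 0% and KO at 2.13%, 1.61% and 28.6%, so most of the 10.5 points came from KO 3. That library had 14 calls at each CpG and stood at 35.7%, 50% and 0% at them. Smarca5 RNA was 151, 147 and 122 CPM in controls and 164, 173 and 178 CPM in KO (log2 fold change 0.29, SE 0.12, edgeR adjusted p 0.155).

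Kcnj10, the inward-rectifier potassium channel of the distal tubule's basolateral membrane, had a window whose promoter CpGs were close to 0% in every newborn library. It lies on chromosome 1 from 172341001 and stood at 6.14%, 5.61% and 6.06% in controls and 14.9%, 9.08% and 10.1% in KO. Of the 6 capital CpGs, 4 were at 0% in all 6 libraries, and the other 2 had KO means of 0.77% and 3.32%. The window's difference was 5.42 points. At the 3 measured positions beyond the promoter sequence the KO mean was higher by 13.6, 12.8 and 1.24 points, but the groups overlapped. At the first, KO 1 to 3 stood at 83.9%, 22.2% and 50% and controls at 21.9%, 40.7% and 52.6%. At the second, KO stood at 58.1%, 34.1% and 20% and controls at 16.7%, 30.8% and 26.3%. The window sums calls, so its percent also depends on how calls are spread over its positions.

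Developmental transcription factors held 9 members among 1080 windows within 5 kb of a listed gene, or 0.833%, against 0.463% of all windows. They were the windows at Hoxd3, Tbx3, Hoxa13, Foxf1, Tbx18, Ebf1, Hoxc12 and Hoxc13, Runx2 and Six3, all of them genes for transcription factors of patterning or lineage choice. Their control means were 0.33% to 14.8% and their differences 5.30 to 10.4 points. The 1080 windows had a median difference of -0.222 points, against -14.7 points over all windows. Neither they nor the windows of the lists below were matched to all windows in control level, on which the share of members depended. At Hoxc12 and Hoxc13 controls stood at 1.43%, 0.45% and 6.42% and KO at 11.6%, 15.3% and 12.8%. At Tbx18, a stromal marker 741 bases from its window, controls stood at 9.49%, 11.2% and 6.80% and KO at 17.0%, 20.5% and 15.3%, with adults lower at 5.10% to 6.00%. At Runx2, KO stood at 4.49%, 1.54% and 21.8% and controls at 0%, 1% and 0%, and at Foxf1 KO stood at 6.41%, 4.24% and 16.7% with controls at 3.49% to 4.11%. In those last windows KO 3 again made most of the difference. Of the listed genes with such a window that were tested for RNA, only Six3 passed.

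The other gene lists held few members. The ureteric list had 2 of 118 windows (1.69%), both in Gfra1, the stroma list 1 of 75 (1.33%), at Tbx18, and the imprinted list 1 of 166 (0.602%), at Igf2, a fetal growth factor. At Igf2 controls stood at 3.86%, 3.82% and 0.45% and KO at 9.33%, 10.2% and 4.76%. No member lay within 5 kb of a gene of the nephron progenitor list (195 windows), the polycomb list (93), the podocyte list (87), the endothelium list (58), the DNA methylation list (54), the tubule list (43) or the leukocyte list (18). At a share of 0.463% most of these lists would hold about 1 member or fewer, so the counts of 0 show nothing particular to them.

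Measured windows around the members did not share their difference in the median. Members were chosen on a large difference and their neighbours were not, so how far a difference reaches cannot be read here. Windows measured next to a member had median differences of -0.335 points on the side of lower coordinates (25 windows) and -1.58 points on the other (20 windows). Only 1 pair of members was adjacent, at Zfp503. At 2 kb the medians were 0.7 points on the side of lower coordinates (14 windows) and -0.973 points on the other (12 windows). From 3 kb outwards to 10 kb the medians ran between -21.2 and -0.115 points. The measured positions within a member spanned a median of 118 bases, from 6 to 963, and 70 members rested on under 50 bases. Of 1124 positions used in the members, 988 (87.9%) had a KO mean above the control mean, and in 151 members every position did. The rule summed the calls of these same positions, so a majority above the controls is favoured by the choice and is not separate support. A total of 93 members (39.4%) had the minimum of 3 positions, against 36.8% of all windows. Neighbouring positions 1 base apart, the 2 strands of a CpG, occurred 56 times, and 4 members rested on fewer than 3 CpGs.

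**Figure D3:**
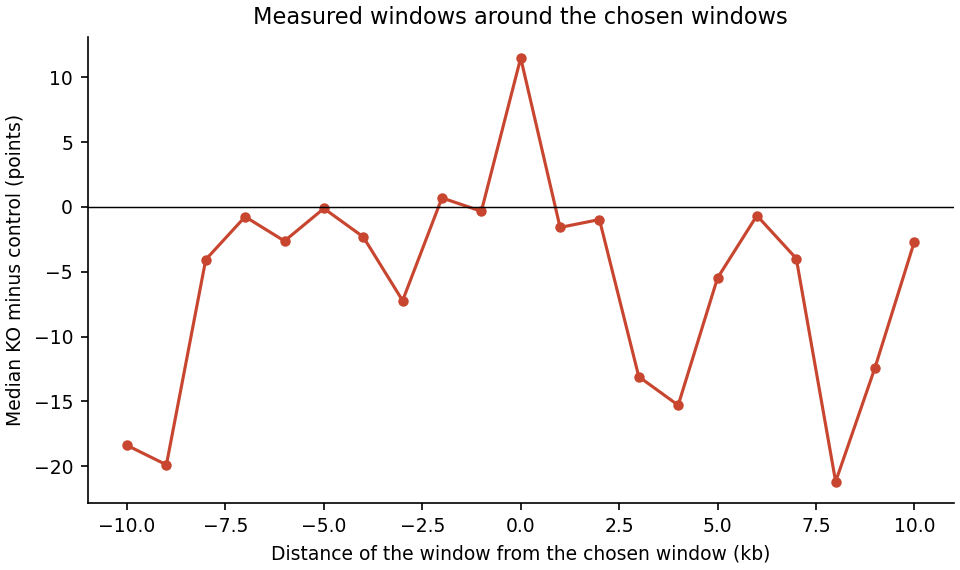
Median KO minus control difference (vertical, percentage points) in measured windows by their distance from a member window (horizontal, kb), with 9 to 25 measured windows at each distance and the 236 members at 0. The members' own median of 11.5 points stands alone, and the windows on either side are near or below 0. The members were chosen on this difference and their neighbours were not.

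A few members lay near each other: 12 groups of at least 2 members within 200 kb were found. The largest, with 3 each, were in Tbc1d1 and in Fto, the gene of an RNA demethylase that neighbours the Irx genes on chromosome 8. The Fto windows had differences of 27.7, 22.4 and 11.7 points. In the first, from 91515001, controls stood at 18.0%, 16% and 0% and KO at 58.0%, 40% and 19%, with adults higher at 74.4%, 85.3% and 51.4%. Chromosome 8 held 23 members, 0.744% of its windows, the highest share among the autosomes, which ran from 0.277% upwards.

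Positions of the member windows that the rule had not used were read separately in the same libraries. In 110 members the positions left out for low calls added up to at least 10 calls in every library. Their KO mean was above the control mean in 60 of the 110, with a median difference of 1.15 points, and every KO library exceeded every control in 8. The same positions of 27055 measured windows had a KO mean above the control mean in 27.2% and a median of -1.64 points. The left-out positions of members were thus higher than those of windows at large, which were not matched to the members in control level. At the positions used by the rule, the median difference of all windows was -4.97 points from 20% to 30% in controls and -22.6 points at 60% or more. The left-out positions also come from the libraries that chose the windows. Their median in members was far below the 11.5 points of the positions that chose the windows.

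Libraries that took no part in the choice gave smaller differences as well. The rule was applied to 2 controls and 2 KO libraries, and the windows it kept were read in the control and KO libraries left out, numbered alike in the labels, a pairing of names only. With number 1 left out, 632 windows were kept at a median of 10.5 points, and the left-out KO exceeded the left-out control in 349 (55.2%), with a median of 1.08 points. With number 2 left out, 984 windows at 11.2 points gave 361 (36.7%) and a median of -2.44 points. With number 3 left out, 433 windows at 9.15 points gave 270 (62.4%) and a median of 4.60 points. Over all windows the left-out KO was higher in 19.4%, 15.4% and 22.9%, with medians of -11.8, -16.3 and -8.79 points. All windows were not matched to the kept ones in control level. Their median control mean was 68%, and the left-out controls had medians of 22.6%, 26.4% and 25% over the kept windows. With 1 library against 1 no test is possible.

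**Figure D4:**
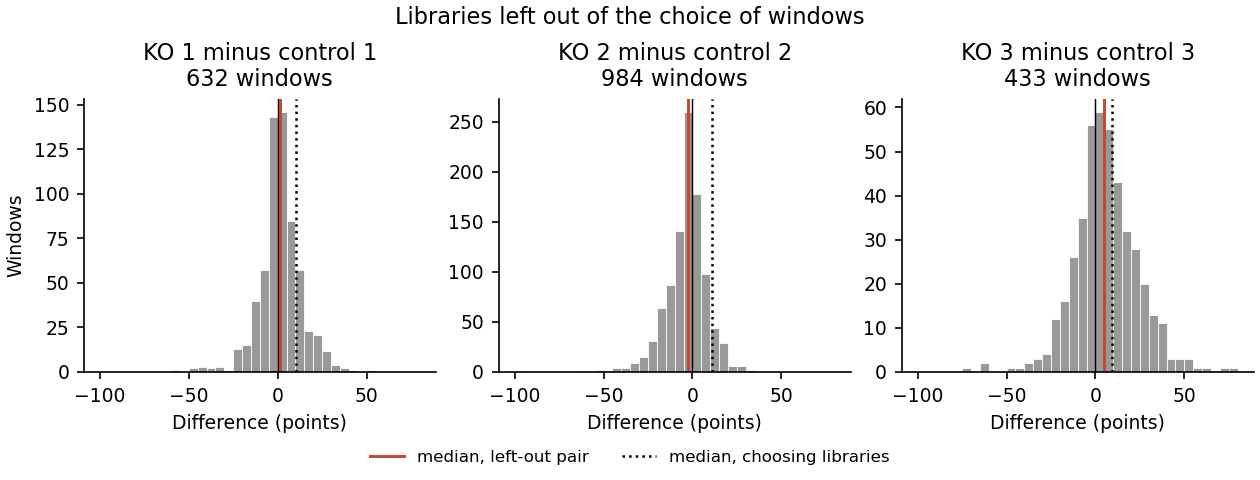
Number of windows (vertical) by the KO minus control difference (horizontal, percentage points, bins of 5) in the pair of libraries left out of the choice, for numbers 1 to 3, with the median of the left-out pair as a red line and that of the choosing libraries as a dotted line. The left-out medians of 1.08, -2.44 and 4.60 points lie close to 0, well left of 10.5, 11.2 and 9.15 points.

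A stricter choice kept windows whose Wilson intervals did not overlap in the 4 choosing libraries. It gave 58, 89 and 41 windows with choosing medians of 19.5, 22.7 and 17.7 points. In the left-out pair the KO was higher in 35, 43 and 32 of them, with medians of 3.28, -0.626 and 11.7 points, and single differences ran from -70.4 to 50.1 points.

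Adult kidney lay between the newborn groups in the median over the members. For 228 members with adult values, the medians were 31.7%, 31.3% and 31.4% in the 3 adult libraries, against 20.4% to 22.7% in controls and 33.3% to 39.9% in KO over the same windows. Over all windows the adult medians, 65.4% to 66.3%, were close to those of the controls, 65.9% to 67.0%. Adult means of the members ran from 0.253% to 85.5%, with 68 under 20%, 79 from 20% to 40%, 55 from 40% to 60% and 26 at 60% or more. In the class of 10% to 20% in controls the adult median was 30.5% at members and 19.7% over all windows, from 20% to 30% it was 33.9% and 29.7%, and from 30% to 40% it was 47.6% and 38.9%. From 40% to 50% the medians were 49.6% and 48.2%. In the few members above that, the adult median was below that of all windows, at 47.8% and 57.7% from 50% to 60% (7 members) and 74.4% and 87.8% at 60% or more (2 members). Under 5% in controls it was 5.73% at members and 0.551% over all. Adults took no part in the rule, but low control values did, and the control libraries are shared by both comparisons.

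Fignl2, with 12 of 12 positions higher in KO, had the pattern of a window that was higher still in adults. On chromosome 15 from 101053001, 399 bases from its annotated start, controls stood at 10.7%, 19% and 19.7%, KO at 22.1%, 27.9% and 40.5% and adults at 71.1%, 77.5% and 79.7%. Tns1, the gene of a focal adhesion protein, had the opposite order on chromosome 1 from 74013001, with controls at 23.6%, 37.2% and 50.5%, KO at 52.7%, 51.4% and 82.0% and adults at 19.1%, 11.2% and 23.7%. There control 3 was within 1 point of KO 2, and the adults were near or below the lowest control.

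RNA was measured in libraries that took no part in the rule, and it was tested at genes near the members. Of 18132 genes tested, 1153 were higher in KO (6.36%) and 1493 lower (8.23%). Of 148 tested genes within 5 kb of a member, 11 were higher (7.43%) and 20 were lower (13.5%), and the median log2 fold change was -0.063, against -0.001 over all genes. For 13480 tested genes within 5 kb of any measured window the shares were 4.9% and 8.7%. The higher genes near members are not all at separate windows: Six3 and Six3os1 share a window, as do Duoxa2, Duoxa1 and Duox2. The count of lower genes was not stable: it was 36 without control 3, 10 without control 1, 5 to 7 without each KO library in turn and 11 when scaled by library size alone. The count of higher genes was 23 without control 3 (15.1%, against 13.6% of all genes) and 17 with DESeq2 (10.2%, against 7.47%). Without KO 1, KO 2 or KO 3 the lower genes made up 4.52%, 3.92% and 3.36% of the tested genes near a member and 3.76%, 4.16% and 4.23% of all genes, so the share near members was then close to that of all genes. Without control 3 the shares of lower genes were 23.7% and 13.8%. They were 6.54% and 5.42% without control 1, and 7.43% and 5.94% when scaled by library size alone.

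Among genes higher in KO, Six3 was at 0 CPM in all 3 controls and at 25, 29.4 and 29.1 CPM in KO. Six3 encodes a homeobox factor of eye and forebrain and is a close neighbour of Six2 on chromosome 17. Against a floor of 3 counts in a control library (0.0971 CPM) it was at least 287-fold higher (edgeR adjusted p 4.8e-05). Its window, from 85609001 to 85610000, stood at 3.51%, 3.19% and 1.46% in controls, 13.1%, 6.28% and 5.66% in KO and 10%, 4.69% and 6.61% in adults. The window lies inside Six3os1, a non-coding RNA that overlaps Six3. Six3os1 had 3 counts over the controls and 198 over the KO samples, a ratio of 74.6 (95% counting interval 25.2 to 365, edgeR adjusted p 0.00012). Strand use in counting is not given in the sources used here, so reads of the overlapping pair cannot be told apart. KO samples also carry the Six2Cre transgene, which the controls lack.

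A window on chromosome 2 from 122302001 overlaps Duoxa2, a maturation factor of the dual oxidase Duox2, and has Duoxa1 and Duox2 within 5 kb. Controls stood at 4.70%, 3.98% and 5.09% and KO at 14.4%, 14.4% and 5.88%, so KO 3 was close to the controls. Duoxa2 had 3 counts over the controls and 164 over KO (ratio 61.8, 95% counting interval 20.8 to 303, edgeR adjusted p 0.00013). Duoxa1 and Duox2 were also higher (log2 fold change 3.48 and 2.33, edgeR adjusted p 0.00829 and 0.0141), all 3 at under 2 CPM.

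The other higher genes started from detectable levels. Nwd2 was at 1.16, 0.87 and 1.71 CPM in controls and 8.35, 4.46 and 7.26 CPM in KO (log2 fold change 2.41, SE 0.36, edgeR adjusted p 0.00328), with a window of 12.8 points inside the gene. St6galnac5, a sialyltransferase, was at 2.38, 2.27 and 2.01 CPM and 4.92, 5.87 and 5.97 CPM (log2 fold change 1.33, edgeR adjusted p 0.00613). Its window stood at 16.4%, 25.6% and 31.5% in controls and 37.7%, 40.7% and 40.4% in KO. Grik4, a kainate receptor subunit, was at 5.51, 6.99 and 6.60 CPM and 15.8, 12.4 and 14.7 CPM (log2 fold change 1.16, edgeR adjusted p 0.00472). In each of these genes the RNA groups did not overlap. Ctxn3 (log2 fold change 1.2), Minar2 (0.81) and Camta1 (0.59, a calmodulin-binding transcription activator) were higher at edgeR adjusted p of 0.0285, 0.0144 and 0.00856. Of 10 alternatives, Ctxn3 lost the call in 5 (edgeR adjusted p up to 0.119 without KO 3, and 0.0721 with the replicate block), Minar2 in 4 (up to 0.0676 without KO 1) and Camta1 in 1 (0.0621 without KO 2).

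Among genes lower in KO, Kcnj10 was at 45.1, 31.6 and 55.1 CPM in controls and 5.58, 11.2 and 9.39 CPM in KO (log2 fold change -2.34, SE 0.30, edgeR adjusted p 0.00164). Pth1r, the parathyroid hormone receptor of the proximal tubule, was at 228, 189 and 342 CPM and 65.5, 75.8 and 87.9 CPM (log2 fold change -1.73, SE 0.23, edgeR adjusted p 0.00191). Its window, from 110725001 on chromosome 9, stood at 34.3%, 38.7% and 37.5% in controls and 40.7%, 47.3% and 39.7% in KO. Only 3 of its 5 positions were higher in KO, and the differences of single positions ran from -4.34 to 21.6 points. Cela1, an elastase, was at 20.4, 13.9 and 26.3 CPM and 6.73, 5.44 and 8.02 CPM (log2 fold change -1.59, edgeR adjusted p 0.0055). These 3 were lower in all 10 alternatives tried for single genes.

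Receptor genes of the renal vasculature and tubule were also among them. Agtr1a, the angiotensin II receptor, was at 25.3, 24.9 and 49.5 CPM in controls and 13.8, 12.0 and 17.4 CPM in KO (log2 fold change -1.21, edgeR adjusted p 0.0273), and Avpr1a, a vasopressin receptor, was at 6.46, 5.86 and 10.2 CPM and 3.49, 3.38 and 3.31 CPM (log2 fold change -1.15, edgeR adjusted p 0.0233). Cdh13, which encodes T-cadherin, was at 5.73, 5.50 and 5.46 CPM and 2.74, 2.62 and 3 CPM (log2 fold change -0.996, edgeR adjusted p 0.0166). Its window, from 118736001 on chromosome 8, stood at 46.1%, 28.8% and 43.4% in controls and 74.2%, 54.5% and 65.7% in KO. Tmem52 (log2 fold change -2.03), Cd300lg (-1.24), Echdc3 (-0.99) and Tns1 (-0.95) were lower too, with edgeR adjusted p from 0.0143 to 0.0256. Of 10 alternatives, Avpr1a, Cdh13, Cd300lg and Echdc3 lost the call in 5, Agtr1a in 4, Tns1 in 3 and Tmem52 in 2. Leaving out KO 1 or KO 2 ended the call in each of these 7 genes, with edgeR adjusted p from 0.0513 to 0.109.

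**Figure D5:**
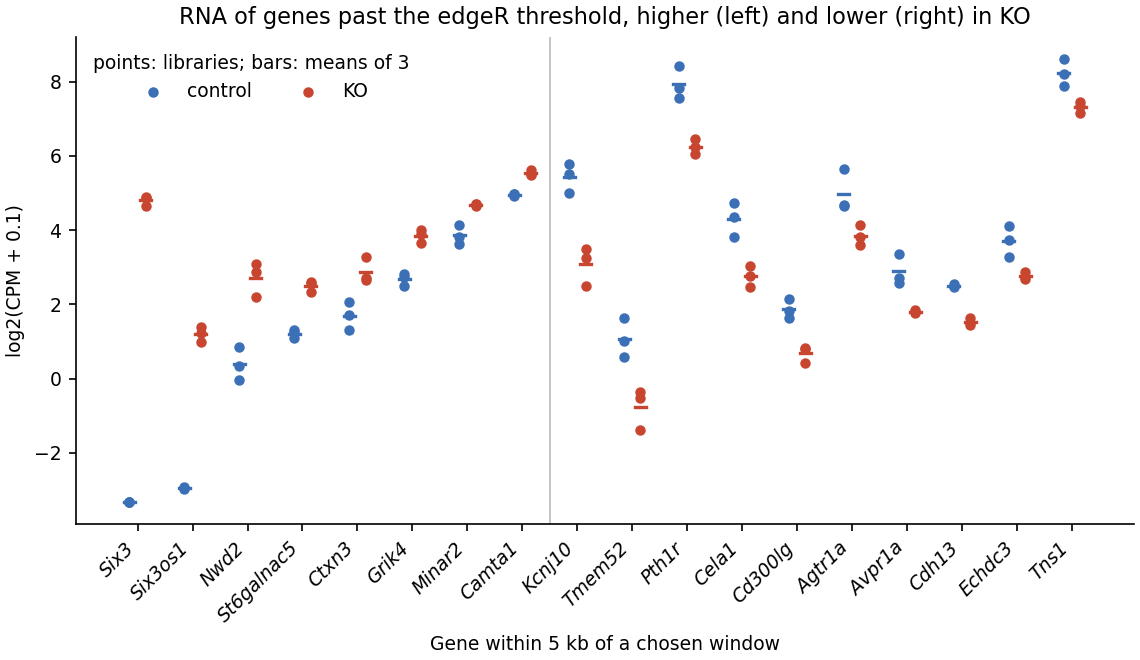
RNA level (vertical, log2 of CPM plus 0.1) in each library of the 18 named genes within 5 kb of a member window that passed the edgeR threshold, higher in KO on the left and lower on the right, for controls (blue) and KO (red), with bars at the means of 3. Six3 is at 0 CPM in all controls. After Six3 and Six3os1, log2 fold changes on the left run from 2.41 (Nwd2) to 0.59 (Camta1). On the right they run from -2.34 (Kcnj10) to -0.95 (Tns1).

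Cell type markers moved beside these genes. Of 25 tested tubule genes, 24 were lower in KO and 1 was higher, at a median log2 fold change of -3.15. Of 18 podocyte genes 10 were lower, of 19 endothelial genes 9 were lower, and none of either list was higher. Of 27 stromal genes 7 were higher and of 18 leukocyte genes 4 were higher, and none of either was lower. The summed leukocyte level was 162 to 194 CPM in controls and 181 to 276 CPM in KO, and the stromal sum was 7485 to 9590 and 7453 to 8849 CPM. No gene of the tubule, podocyte, endothelium, stroma or leukocyte list was listed at 0 in all libraries. Of 36 nephron progenitor and early nephron genes 10 were lower and 4 higher, and of 30 ureteric genes 6 were higher and 2 lower. Their summed levels were 2986 to 3498 CPM in controls and 2810 to 2961 CPM in KO for the first list, and 2040 to 2856 CPM and 2327 to 3420 CPM for the second. Six2 was at 98, 107 and 41.4 CPM in controls and 84.4, 93.8 and 105 CPM in KO, control 3 being low. The part of cell makeup in the members' methylation and in the RNA of nearby genes was not tested.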

How the data were processed

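RRBS and messenger RNA sequencing files were used as deposited. Per the file contents, each RRBS file gives a position, a methylation percent computed by the authors and counts of methylated and unmethylated calls, and each RNA file gives deposited read counts per gene. The submitters' processing notes name Trim Galore, Bismark, STAR 2.4.1d, HTSeq 0.6.1 and build GRCm38 (mm10), without order or settings. The 5 lines of unassigned reads in each RNA file (22.9% to 35.8%) were left out.

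Window methylation was 100 times the summed methylated calls over the summed calls, at positions with at least 10 calls in all 6 P0 libraries. For RNA, edgeR 4.0.16 was used with its quasi-likelihood test (TMM scaling, its low-count filter, Benjamini-Hochberg adjustment at 0.05 over all genes). Both steps were tested on simulated data. Gene coordinates and sequences were RefSeq's, and 182 genes matched by symbol lay within 5 kb of 155 members. By rule, the windows named were the 15 largest differences with at least 5 positions, those at listed genes past the threshold, and 3 on each side of the threshold. The 13 with separate intervals and the promoter, list, grouped (Fto, Tbc1d1), Fignl2, Tns1 and called-gene windows were named after their values were seen. By rule, the genes named were up to 10 called genes in each direction near a member, by fold change, leaving out clone names and genes with a mean log2 CPM under 0, which gave 8 higher and 10 lower. Duoxa2, Duoxa1, Duox2 and Tnfaip2, and the RNA of other genes at described windows, were added after their values were seen. Members and lists were chosen with earlier results of these data known.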

Additional observations from a re-analysis of the deposited data

How the results depend on the processing

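The number of member windows, 236, was 412 with at least 5 calls per position (of 89376 windows, 186 of them shared with the 236), 81 with at least 20 calls (of 16896, 58 shared), 89 when 5 positions were required and 146 when 10 points were required. It was 324 to 632 when a library was left out, 343 of them without KO 3. It was 230 with positions weighing the same, 213 with all positions, 245 on a shifted grid and 236 without the deepest positions, with 184, 163, 185 and 236 shared. The members' median difference was 9.1 to 12.8 points when a library was left out. In the left-out pairs, the stricter choice, made after seeing the data, gave medians of 3.28, -0.626 and 11.7 points in place of 1.08, -2.44 and 4.60. Genes higher in KO near a member, 11, were 17 with DESeq2 1.42.0 (10.2%, against 7.47% of all genes). Within gene bounds only they were 7 (6.09%, against 6.36%), and with a library left out 8 to 23 (5.16% to 15.1%, against 3.47% to 13.6%). Genes lower near a member, 20, were 11 with library size alone (7.43%, against 5.94%). With a library left out they were 5 to 36 (3.36% to 23.7%, against 3.76% to 13.8%). All genes higher were 647 to 2512 and lower 701 to 2561 with a library left out. Replicate numbers did not pair the RNA samples: same-numbered deviations correlated at -0.284, -0.101 and -0.149. With the replicate block, 10 genes near a member were higher (6.76%) and 10 lower (6.76%). Over all genes 798 were higher (4.4%) and 1005 lower (5.54%). Over the named genes and their alternatives, 141 calls kept their side of the threshold, 39 were lost and 0 changed sign. Agtr1a, Avpr1a, Cd300lg, Cdh13, Ctxn3, Echdc3 and Minar2 each lost the call in 4 or 5 of 10 alternatives, Tns1 in 3, Tmem52 in 2 and Camta1 in 1. At the 15 largest windows 0 of 168 values changed sign, and 3 moved by more than the SD of the KO libraries: Kcp (15.9 points) to 9.26 at 5 calls and 8.65 with all positions, and Cdh6 (16.1) to 20.8 without control 2. Spint2 (20.2) went to 9.05, 9.16 and 9.9 with positions weighing the same, all positions and 5 calls. Depth limits single windows most in KO 3, with a median of 74 calls per member.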
